A study of Rattus norvegicus with 12 samples.

Results

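Galectins are lectins that bind beta-galactosides on glycoproteins and glycolipids. For each of the 7 galectin genes described here (Lgals1, Lgals3, Lgals4, Lgals5, Lgals7, Lgals8 and Lgals9), the array's annotation gives the symbol to a probe. They are 7 of 13337 named genes on the array, with 1 probe each, and were chosen from values of these 12 arrays, so their signals are given as a description. The array carries 4 further genes with an Lgals symbol, Lgals2, Lgals12, Lgalsl and Lgals3bp.

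The study measured RNA of rat cells and of exosomes, the small vesicles that cells release, on 1-colour Illumina arrays, all from rats of the BDX strain by the labels. Tumour RNA came from AS, a pancreatic carcinoma line, and from AS-Tspan8, derived from it by stable expression of the tetraspanin Tspan8, with 1 array for each line. Exosomes of AS and of AS-Tspan8 were taken from serum-free supernatants after 36 h of starvation, with 2 arrays each. The recipient cells, labelled endothelial cells from aorta and called EC here, were starved overnight and kept for 24 h in medium with 2% serum, either untreated, with AS exosomes at 10 µg/ml or with AS-Tspan8 exosomes at 10 µg/ml, again with 2 arrays each. The labels do not say whether arrays of a group are separate cultures, and the spread behind each p-value may therefore be technical.

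Galectins are made without a signal peptide and leave cells by a route that bypasses the Golgi apparatus. Lgals1, Lgals5 and Lgals7 encode galectins with a single carbohydrate-binding domain, Lgals3 encodes the chimeric galectin that joins such a domain to a tail through which it forms oligomers, and Lgals4, Lgals8 and Lgals9 encode galectins with a pair of different binding domains in 1 chain. Outside the cell they cross-link glycoproteins such as integrins, and inside it Lgals3 and Lgals8 proteins mark damaged endosomes and lysosomes.

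Summed signal over all 22523 probes was 10383650 to 12705558 on the EC arrays, 13714493 for AS cells, 21955880 for AS-Tspan8 cells and 2390577 to 2924133 on the exosome arrays. A probe is called detected where its deposited detection p-value was under 0.01, which held for 8563 to 8923 probes on EC arrays, 9269 and 9389 on the tumour cell arrays and 2104 to 3604 on exosome arrays. The transgene followed the labels in the cells. Tspan8 signal was 2036 in AS-Tspan8 cells and was not detected on any of the other 11 arrays, exosomes of AS-Tspan8 cells included. Most endothelial markers did not bear out the EC label. Of 16 on the array, 3 (Egfl7, Clec14a and Ramp2) were detected on every one of the 6 EC arrays and 12 on no EC array. The same 3 were detected in both tumour lines. Of 14 fibroblast markers, 12 were detected on all 6 EC arrays. The name EC is kept below as the label's name.

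Lgals5 and Lgals9 lie near each other on rat chromosome 10, with no protein-coding gene starting between them in RefSeq's annotation of the GRCr8 build, and their start regions are close copies. Both windows are shown because Lgals9 was detected in EC while Lgals5 was detected nowhere. Probe sequences were not used here, so whether either probe also binds the other gene's transcript was not tested. Each runs from 250 bases before to 50 bases after the annotated start, 5′ to 3′ on the minus strand, from RefSeq, and capitals mark the longest run that the pair shares. The Lgals5 window is chr10:64355088-64355387 and the Lgals9 window is chr10:64428021-64428320.
Lgals5: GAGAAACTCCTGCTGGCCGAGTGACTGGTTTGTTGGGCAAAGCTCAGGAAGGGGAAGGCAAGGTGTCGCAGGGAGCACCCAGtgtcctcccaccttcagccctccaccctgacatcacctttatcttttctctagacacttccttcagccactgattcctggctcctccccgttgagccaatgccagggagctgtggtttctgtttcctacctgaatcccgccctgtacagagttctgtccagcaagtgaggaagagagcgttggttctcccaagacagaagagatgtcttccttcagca
Lgals9: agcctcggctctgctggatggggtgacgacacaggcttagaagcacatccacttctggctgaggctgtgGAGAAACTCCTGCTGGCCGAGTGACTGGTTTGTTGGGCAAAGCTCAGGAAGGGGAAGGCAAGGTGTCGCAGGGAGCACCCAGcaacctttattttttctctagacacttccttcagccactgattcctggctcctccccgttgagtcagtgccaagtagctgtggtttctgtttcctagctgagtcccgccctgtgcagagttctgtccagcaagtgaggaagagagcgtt
The shared run is 82 bases long and covers bases 1 to 82 of the Lgals5 window and bases 70 to 151 of the Lgals9 window. Where the windows align, leaving gaps aside, 223 of 231 bases were identical (96.5%). Windows were matched for 5 of the 7 genes, all but Lgals1 and Lgals3, and the other pairs shared 59.4% to 67.4% of aligned bases with runs of at most 11 bases. The motif GATAA, the core bound by GATA factors, was searched on both strands (GATAA and TTATC, which do not overlap each other) after the windows had been seen. It occurred once in the Lgals5 window, from base 121 as TTATC, and not in that of Lgals9. Among the other matched windows it occurred at 2 places in that of Lgals4 and not in those of Lgals7 and Lgals8. It was present in 26.5% of the 33469 rat windows of 300 bases, and a match is only a match of letters. Lgals4 and Lgals7 are also neighbours, on chromosome 1, with no gene starting between them.

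Of the 7 galectins described here, 5 were detected on at least 1 array. Signals below are the deposited intensities before normalization, in arbitrary units, and a rank is the share of probes on the same array with a lower signal. Levels of different probes are not compared with each other, since probes differ in binding.

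Lgals3 was detected on all 12 arrays. Its signal was 20074 and 21501 in untreated EC, 19570 and 17609 in EC with AS exosomes and 17286 and 23245 in EC with AS-Tspan8 exosomes. AS cells gave 2105 and AS-Tspan8 cells 13514. The AS exosome arrays gave 250.5 and 298.4, and those of AS-Tspan8 exosomes 161.2 and 182.7. The 3 EC groups overlapped and lay above AS-Tspan8 cells, which lay above AS cells, and the AS exosome arrays lay above the AS-Tspan8 exosome arrays. Its rank was 99.6% to 99.8% in EC, 93.8% in AS cells, 98.6% in AS-Tspan8 cells and 96.5% to 97.3% in exosomes.

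Lgals1, whose protein is a secreted homodimer that binds integrins and matrix glycoproteins, was detected on 11 of 12 arrays. Its signal was 10026 and 17296 in untreated EC, 10156 and 11163 in EC with AS exosomes and 9919 and 9903 in EC with AS-Tspan8 exosomes. AS cells gave 11438 and AS-Tspan8 cells 21885. Untreated EC replicate 2 stood above the other 5 EC arrays, and AS cells lay within the EC range. AS exosomes gave 134.9 and 430.8, and AS-Tspan8 exosomes 112.3 and 79.22, the last one not detected. The higher AS exosome array was 3.19 times the lower one, the widest replicate ratio of any galectin here. Rank was 99.0% to 99.6% on the 8 cell arrays and 71.2% to 97.9% on exosome arrays.

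Lgals7, in mammals mainly a galectin of stratified epithelia, was detected on all 12 arrays at low signal. It gave 120.3 and 151.2 in untreated EC, 126.0 and 108.3 in EC with AS exosomes and 116.5 and 116.1 in EC with AS-Tspan8 exosomes. AS cells gave 127.3, AS-Tspan8 cells 187.3, AS exosomes 271.4 and 173.2 and AS-Tspan8 exosomes 178.9 and 178.7. Of the 5 detected galectins it was the 1 whose exosome signals were not all below those of the cells. Its rank was 65.6% to 69.6% on the cell arrays and 93.5% to 97.3% on the exosome arrays, while its signal differed far less. Fewer probes were detected on exosome arrays than on cell arrays, and the part of this in the rank was not tested.

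Lgals8, which binds integrins at the surface and recruits autophagy receptors to damaged vesicles, was detected on the 8 cell arrays and on no exosome array. Signal was 467.5 and 507.1 in untreated EC, 520.9 and 497.7 in EC with AS exosomes and 439.7 and 393.8 in EC with AS-Tspan8 exosomes. AS cells gave 361.1, below all EC arrays, and AS-Tspan8 cells 954.7, above all of them. The exosome arrays gave 70.68 to 85.83. Lgals9, known as a ligand of the inhibitory T cell receptor Tim-3, was detected on all 6 EC arrays and in AS-Tspan8 cells. Its signal was 257.1 and 233.4 in untreated EC, 287.3 and 198.6 in EC with AS exosomes and 231.7 and 244.3 in EC with AS-Tspan8 exosomes. AS-Tspan8 cells gave 150.9, below each EC array, and AS cells 78.43, not detected. The exosome arrays gave 56.78 to 68.29, also not detected.

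Lgals4, a galectin of the gut epithelium, gave 60.43 to 76.58 and was detected on 0 of 12 arrays. Lgals5, in the rat a galectin of reticulocytes and erythrocytes that is sorted into reticulocyte exosomes, gave 58.71 to 75.81 and was also detected on 0 of 12. For both genes the probe sets only an upper limit, the array's background. Of the further Lgals genes, Lgals2 and Lgals12 were detected on no array and Lgalsl on the 8 cell arrays. Lgals3bp, a secreted glycoprotein that binds Lgals3 protein, had signals of 1341 to 2168 in EC, 2242 for the AS line and 5258 for AS-Tspan8, and was detected on 1 of 4 exosome arrays.

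**Figure D1:**
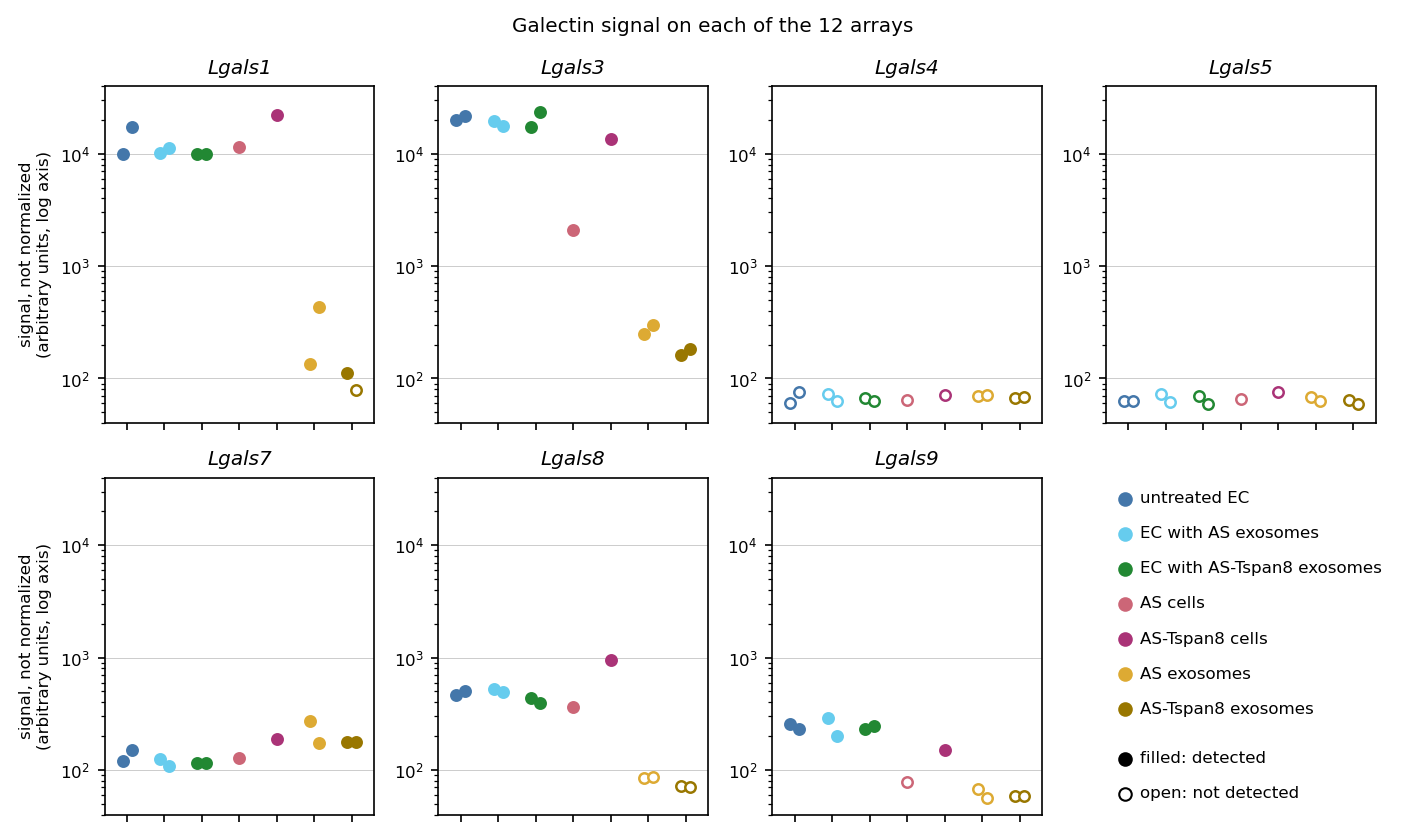
Signal before normalization (arbitrary units, log axis) of each galectin probe on each array, 1 point an array, coloured by group and open where the probe was not detected. Lgals3 spans 2105 to 13514 between the tumour lines, Lgals7 runs from 108.3 to 271.4, and Lgals4 and Lgals5 stay at background on all 12 arrays.

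**Figure D2:**
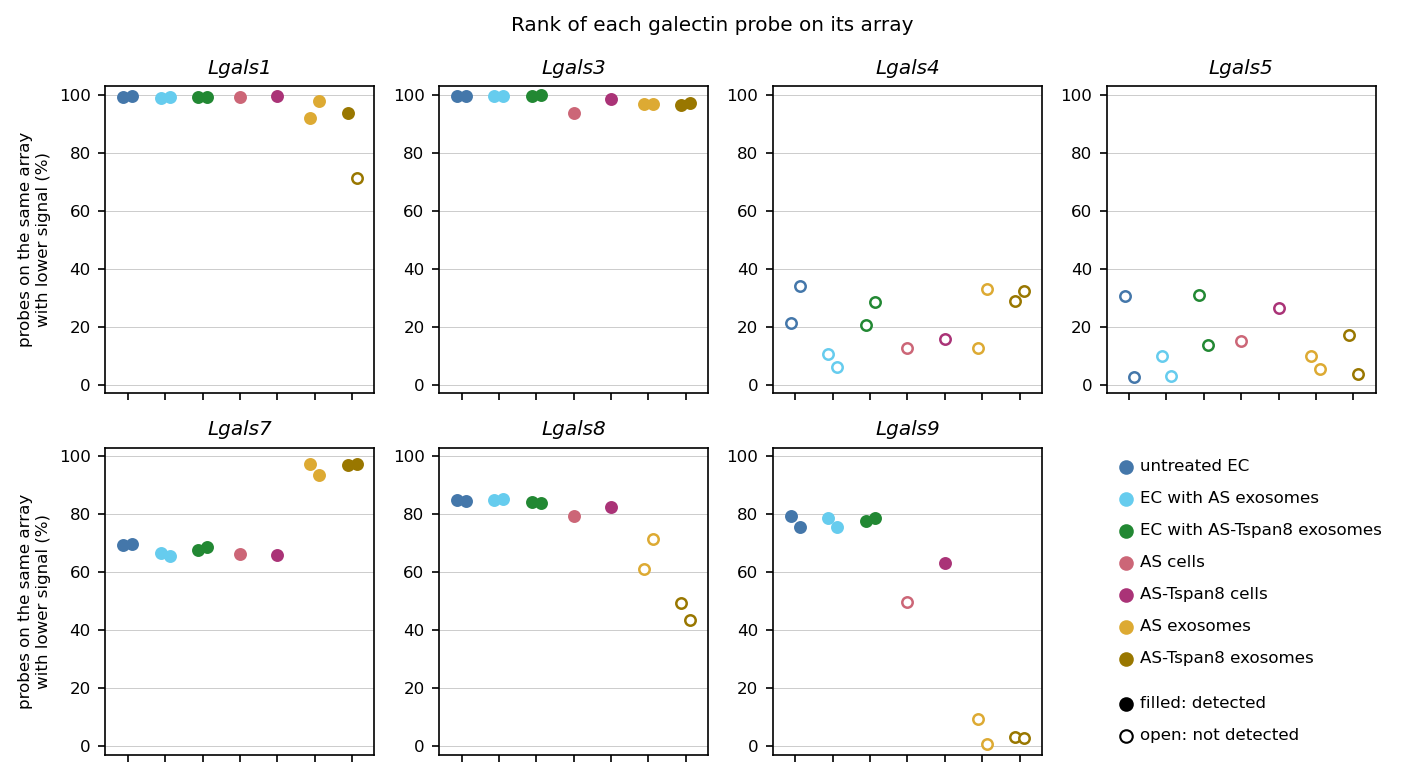
Share of probes (%) on the same array with a lower signal than the galectin's probe, 1 point an array, coloured by group and open where not detected. Lgals7 ranks at 65.6% to 69.6% on cell arrays and at 93.5% to 97.3% on exosome arrays, and Lgals3 at 93.8% or above everywhere.

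The first comparison asked whether exosomes changed galectin transcripts in the EC that received them. No galectin passed the test in EC given either kind of exosome. Values were tested with limma after background correction and quantile normalization, on the log2 scale, with Benjamini-Hochberg adjustment over 9025 features, and Lgals4 and Lgals5 did not enter since a feature had to be detected on at least 2 arrays. Of the 5 galectins tested, 0 passed an adjusted p of 0.05 in EC with AS exosomes against untreated EC, where 0% of all features passed and 62 had an unadjusted p under 0.05. In EC with AS-Tspan8 exosomes 0 passed, again with 0% of all features and with 116 under an unadjusted p of 0.05. Against each other the exosome-treated groups likewise gave 0 galectins and 0% of features by limma, with 51 under an unadjusted 0.05. The authors' processed table, put through the same test, also gave 0 in each of these comparisons.

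Lgals7 had the smallest unadjusted p of the 5. It was lower by 0.48 on the log2 scale in EC with AS exosomes (log2 difference -0.48 ± 0.16 SE, n = 2 and 2, unadjusted p = 0.0220 and adjusted p = 0.9997 by limma with Benjamini-Hochberg adjustment). The difference was -0.39 between the arrays numbered 1 and -0.57 between those numbered 2. After normalization Lgals7 was the 1 galectin whose arrays did not overlap in that comparison, as was the case for 23.2% of all features. Its signals before normalization overlapped. With AS-Tspan8 exosomes its difference was -0.19 ± 0.16, and Lgals8 was at -0.11 ± 0.16. These were the 2 galectins without overlap, against 25.1% of all features. The same 2 genes did not overlap between the exosome-treated groups, at 0.29 ± 0.16 for Lgals7 and -0.18 ± 0.16 for Lgals8, against 17.7% of features. Before normalization Lgals7 overlapped there too.

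For the other galectins the differences were within about 1 standard error. In EC with AS exosomes Lgals1 was at -0.28 ± 0.31, Lgals3 at -0.11 ± 0.23, Lgals8 at 0.07 ± 0.16 and Lgals9 at -0.04 ± 0.26. In EC with AS-Tspan8 exosomes Lgals1 was at -0.27 ± 0.31, Lgals3 at 0.06 ± 0.23 and Lgals9 at 0.11 ± 0.26. The 2 treatments share the untreated arrays, so the near equal Lgals1 values are not independent. Without untreated EC replicate 2, Lgals1 stood at 0.15 with AS exosomes and 0.16 with AS-Tspan8 exosomes. The median over the 5 tested galectins was -0.11 in both treatments, beside -0.00081 and 0.0026 over all features.

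**Figure D3:**
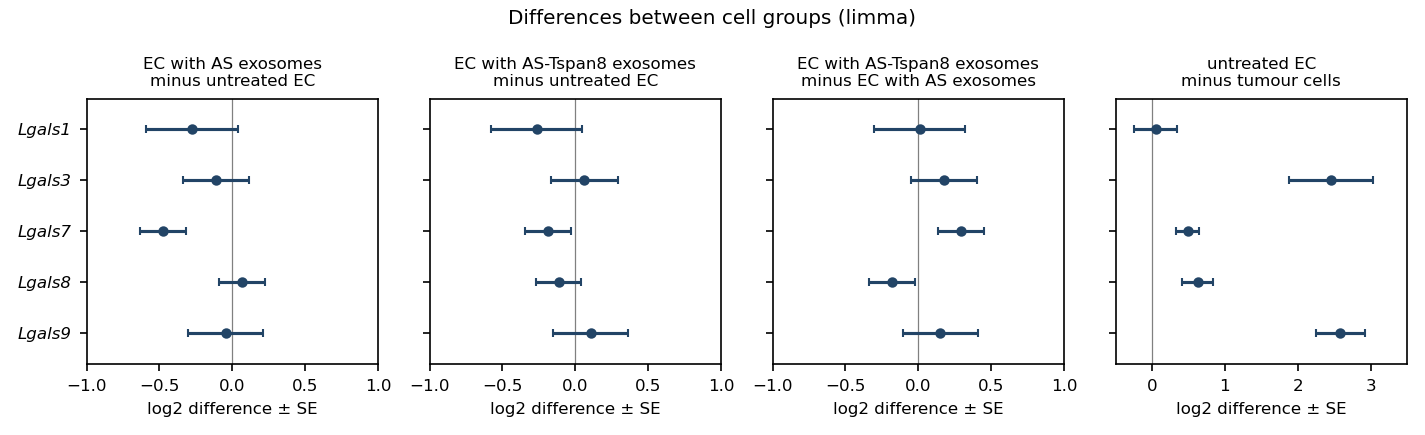
Log2 difference ± SE of the 5 tested galectins in the 3 comparisons among EC groups and in untreated EC against tumour cells, with a wider axis in the last panel. Among EC groups all points lie between -0.48 and 0.29, and against tumour cells Lgals3 (2.46) and Lgals9 (2.59) stand furthest from 0.

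The genes that galectins work with were read from lists drawn up with earlier results of these data known. None of the 15 tested enzymes that build or cap galectin-binding glycans, the 19 tested cell surface and matrix glycoproteins bound by galectins, the 8 tested partners inside the cell and the 2 other galectin family genes passed limma's test in any of the 3 EC comparisons. Median differences of these lists ran from -0.31 for the other family genes to 0.12 for the same list.

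The next comparison set untreated EC against the 2 tumour lines, which by the labels differ from EC in tissue and culture medium as well as in cell type. Lgals3 and Lgals9 were higher in EC. Lgals3 was higher by 2.46 ± 0.58 on the log2 scale (n = 2 untreated EC arrays and 1 array of each line, adjusted p = 0.00992 by limma). The 2 lines formed 1 group in this test, so the difference between them is part of the SE. It was 3.41 and 3.56 above AS cells on the 2 untreated arrays and 1.35 and 1.5 above AS-Tspan8 cells, so the size differed between the lines while the direction did not. Lgals9 was higher by 2.59 ± 0.34 (adjusted p = 0.000697), at 2.43 and 1.88 above AS-Tspan8 cells. Its size depended on the processing, at 1.33 in the authors' processed table (adjusted p = 0.00159) and 1.47 without background correction (adjusted p = 0.00129). AS cells had no detected Lgals9, and EC were at least 6.22-fold higher, taking the lowest detected signal of the AS array as its level.

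Lgals8 was higher by 0.63 ± 0.21 (adjusted p = 0.0394) and Lgals7 by 0.49 ± 0.16 (adjusted p = 0.0341). Lgals1 was at 0.05 ± 0.29 (adjusted p = 0.898), but passed under median scaling (0.72, adjusted p = 0.0317). Lgals7 did not pass without background correction (adjusted p = 0.0692) or in the authors' processed table (adjusted p = 0.0796). In all, 4 of 5 tested galectins passed, all higher in EC, and 4 did not overlap between the groups after normalization. Before it, Lgals7 and Lgals8 overlapped. Among all 9972 features 52.4% passed and 78.9% did not overlap, and nothing is read from the galectins' count since their values were known when they were chosen. The median over the galectins was 0.63, beside -0.01 over all features. Lgals9 passed with each of the 8 arrays left out in turn. Lgals3 missed the threshold without untreated EC replicate 2 (2.38, adjusted p = 0.0542), and Lgals7 and Lgals8 missed it without 6 and 7 of the 8 arrays. With unscaled arrays the all-feature median moved to -0.78, and Lgals7 and Lgals8 stood at -0.24 and -0.27, which is 0.55 and 0.51 above that median.

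Markers of other cell types moved with this difference. Summed fibroblast marker signal was 68392 to 85007 on EC arrays and 3750 to 4618 in the tumour lines, where 2 of the 14 markers were detected in both. Summed epithelial marker signal ran the other way, at 807 to 1045 on EC arrays and 11017 to 22063 in the tumour lines. Most of the tumour sum was Krt19, at 9554 for the AS line and 20409 for AS-Tspan8. Of 10 epithelial markers on the array, 4 were detected in both lines and 5 in neither. Krt8 was also detected on all 6 EC arrays, at 219.3 to 283.8, against 128.0 for the AS line and 234.2 for AS-Tspan8. Of 9 macrophage and leukocyte markers only Cd14 was detected on EC arrays, and their summed signal was 937 to 1134 in EC and 914 to 1618 in the tumour lines. The part of these markers in the galectin differences was not tested. In bulk RNA of this kind, fewer cells of a type and less RNA per cell cannot be told apart.

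The partner lists were counted in the same comparison, in which 52.4% of all features passed, and nothing particular to the lists is read from their counts. Of 16 tested glycan enzymes 4 were higher and 3 lower in EC. B4galt4, a galactosyltransferase that makes the lactosamine unit galectins bind, was detected on both untreated EC arrays and in neither line, at least 29.2-fold higher in EC (adjusted p = 7.32e-06). B3gnt2, which extends poly-lactosamine chains, was lower by a log2 difference of -2.27 ± 0.35 (adjusted p = 0.00155). Of 23 tested glycoproteins 13 were higher and 5 lower. Alcam, an adhesion molecule that binds Lgals8 protein, was detected in EC only and at least 41.9-fold higher (adjusted p = 3.85e-05). Podxl, a sialomucin, was detected in both tumour lines and on neither untreated EC array, and was at least 32.3-fold higher in the lines (adjusted p = 3.68e-05). B4galt4, Alcam and Podxl were detected only on the side of the comparison where they were higher. Their p-values are therefore given only as a description. Of 8 partners inside the cell, 2 were higher and 1 lower, led by the lysosomal channel gene Mcoln1 (2.08 ± 0.22, adjusted p = 0.000282) and by Gemin4, whose protein works in snRNP assembly (-0.70 ± 0.16, adjusted p = 0.00802).

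Between the 2 tumour lines there is 1 array each and no test. Lgals3 was the galectin that differed most, from 2105 to 13514, AS-Tspan8 cells being the higher by a ratio of 6.42, where the summed signal of all probes had a ratio of 1.60. After quantile normalization its log2 difference was 1.90, and it was 2.01 in the authors' processed table and 1.82 under median scaling. It was the 1 galectin past a 2-fold difference, which 4.66% of features passed in either direction and 2.71% in the direction of AS-Tspan8 cells. Lgals8 was at 0.51, Lgals1 at 0.36 and Lgals7 at -0.05, while Lgals9 was at least 1.28-fold higher in AS-Tspan8 cells.

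Lgals3 signal in exosomes was set beside the level in the cells. Exosomes of AS-Tspan8 cells, the line with more Lgals3 signal, gave 161.2 and 182.7 against 250.5 and 298.4 for AS exosomes. The order of the exosomes was thus opposite to that of the cells before normalization. Summed signal of all probes was also lower for AS-Tspan8 exosomes, at 2390577 and 2413936 against 2696800 and 2924133. Its part in the Lgals3 order was not tested. Cell signal was 7.05 to 8.40 times exosome signal in AS and 74.0 to 83.8 times in AS-Tspan8. After normalization the exosomes of the 2 lines overlapped, with a log2 difference of 0.06 ± 0.22 for AS-Tspan8 minus AS (n = 2 and 2, adjusted p = 0.966 by limma). Against their own cells, the log2 differences of the 2 exosome arrays were 0.93 and 0.91 in AS and -1.09 and -0.76 in AS-Tspan8.

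The test of that difference between lines gave -1.85 ± 0.37 for Lgals3, with an unadjusted p of 0.0157 and an adjusted p of 0.955 by limma with Benjamini-Hochberg adjustment, so it did not pass. No feature passed there (0% of 9434), and 305 had an unadjusted p under 0.05. Without scaling between arrays the Lgals3 value was -3.58 with an adjusted p of 0.0243, in a setting where the median of all features was -1.25 and 4544 features passed. Under median scaling it was -1.74, relative to a median of 0.59 over all features. Each line's cells were measured on 1 array, so the difference rests on single arrays of AS and AS-Tspan8 cells. For the other galectins the same difference was -2.76 ± 2.91 for Lgals1, 0.60 ± 0.88 for Lgals7 and -1.5 ± 0.82 for Lgals8, with an adjusted p of 0.955 for each. Lgals8, undetected in exosomes, passed without scaling (-1.84, adjusted p = 0.0243).

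Lgals1 signal was far lower in exosomes than in their cells, by a ratio of 26.6 to 84.8 in AS and of 195 on the AS-Tspan8 exosome array that detected it. The normalized difference over both lines was -3.22 ± 1.39 (adjusted p = 0.106), which did not pass by limma. It did pass under median scaling (-3.65, adjusted p = 3.49e-16) and without scaling (-7.67, adjusted p = 7.9e-06), so the call depends on the scaling. By array it was -2.80 and -0.89 in AS and -2.80 and -6.42 in AS-Tspan8, the last from the array on which Lgals1 was not detected. Between exosome kinds Lgals1 was at -2.40 ± 1.68 (adjusted p = 0.759). It ranged from -4.21 without AS-Tspan8 exosome replicate 1 to -0.59 without replicate 2, the array on which it was not detected. The arrays of the exosome kinds did not overlap before normalization and did after it.

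Lgals7 was higher in exosomes than in cells after quantile normalization, by 5.04 ± 0.41 (n = 4 and 2, adjusted p = 0.00171 by limma). It was 5.32 and 4.16 in AS and 5.26 and 5.41 in AS-Tspan8. The signals themselves were 1.36 to 2.13 times the cells' in AS and 0.954 to 0.955 times in AS-Tspan8. Without scaling the difference was 0.47 (adjusted p = 0.327), and it was 4.49 under median scaling and 4.37 in the authors' processed table. The median of all features in these settings was -1.22 with quantile normalization, -3.63 without scaling and 0.39 under median scaling, so that Lgals7 was 6.26, 4.10 and 4.10 above the median. It passed with each of the 6 arrays left out in turn.

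Lgals3 changed its place with the scaling. Its difference between exosomes and cells over both lines was -0.0012 ± 0.48 (adjusted p = 0.998), or 1.22 above the median of all features, but it was -1.09 (adjusted p = 0.0182) under median scaling and -5.11 (adjusted p = 4.81e-05) without scaling, in both cases at -1.48 relative to that median. Lgals8 was detected in both lines and in no exosome sample. It entered the test through the cells alone, so its call is given only as a description. Normalized means were 7.71 in cells and 5.29 in exosomes (adjusted p = 0.0189 by limma). No fold is given for Lgals8 because the lowest detected signal on exosome arrays lies above the cells' level after normalization. It no longer passed under median scaling (-0.18, adjusted p = 0.722), without AS-Tspan8 cells (adjusted p = 0.143) or without any 1 of 3 of the exosome arrays. Lgals9 was not tested here since it was detected on 1 of the 6 arrays.

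Of the 4 galectins tested between exosomes and cells 2 passed, Lgals7 higher and Lgals8 lower, and 3 did not overlap after normalization. The Lgals8 call rests on exosome arrays that did not detect it. Over all 9434 features 56.9% passed, 1507 higher and 3864 lower in exosomes, and 75.1% did not overlap, and nothing is read from the galectins' counts. The split of all calls was 3964 higher and 2753 lower under median scaling and 433 higher and 8156 lower without scaling. The median over the 4 galectins was -1.21, beside -1.22 over all features. Between exosome kinds 0 of 4 galectins and 0% of features passed by limma, with 618 features under an unadjusted p of 0.05, and Lgals8, undetected in both, was the 1 galectin without overlap, against 40.1% of features. Lgals7 was at 0.55 ± 0.51 there.

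**Figure D4:**
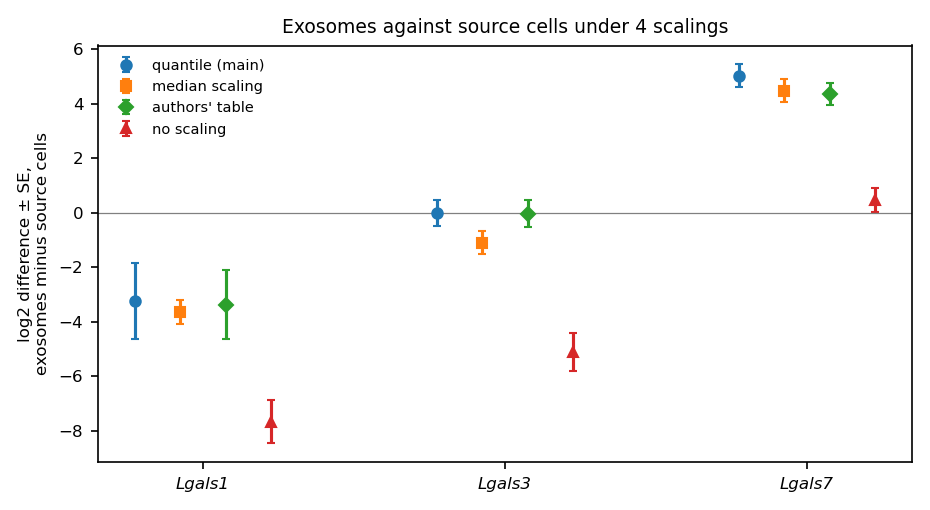
Log2 difference ± SE between exosomes (4 arrays) and source cells (2 arrays) for Lgals1, Lgals3 and Lgals7 under 4 scalings of the arrays. Lgals7 is at 5.04, 4.49 and 4.37 in the scaled settings and at 0.47 without scaling, and Lgals3 moves from -0.0012 to -5.11.

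The partner lists gave 0 passing genes between exosome kinds. Between exosomes and cells, where 56.9% of all features passed, 6 of 11 glycan enzymes were lower and 0 higher, and nothing particular to the lists is read from these counts. Mgat4b, a branching enzyme of N-glycans, passed as lower in exosomes (normalized means 5.88 and 10.27, adjusted p = 0.0271), and with detection on 1 of 4 exosome arrays no fold is given. Of 19 glycoproteins 2 were higher and 9 lower in exosomes. Cspg4, a proteoglycan that binds Lgals3 protein, was detected on 3 of 4 exosome arrays and in neither line. Its normalized means were 9.02 in exosomes and 4.71 in cells (adjusted p = 0.0421 by limma). No fold is given for Cspg4, since the size of such a difference depended on the scaling for Lgals7. Tfrc, the transferrin receptor, was detected in both lines and on no exosome array, at least 1.5-fold higher in cells (adjusted p = 0.00137). Of 8 partners inside the cell 3 were higher and 2 lower. Trim16, which works with Lgals3 protein at damaged endosomes, was counted as higher in exosomes (normalized means 7.92 and 5.42, adjusted p = 0.0064 by limma). It was detected in both lines and on no exosome array, so no fold is given and no higher level is read from it. Ctnnb1, the gene of beta-catenin, was also detected in both lines and on no exosome array, at least 1.51-fold higher in cells (adjusted p = 0.00325 by limma). Tfrc, Trim16 and Ctnnb1 entered the test through the cells alone and Cspg4 through the exosomes alone. The p-values of these genes are therefore given only as a description. The bounds for Tfrc and Ctnnb1 hold for quantile-normalized values, and values under other scalings are not given. Lgals3bp passed as lower in exosomes (normalized means 5.61 and 10.28, adjusted p = 0.0358), and with detection on 1 of 4 exosome arrays no fold is given.

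Genes with the most similar pattern were found over the 8 cell arrays, among 6616 named genes, as the smallest root mean square difference of log2 values centred on each gene's mean. The closest to Lgals3, which spanned 3.81 log2 units, were Fst (0.152), Ifitm3 (0.230) and Ugcg (0.241), where the median over all genes was 1.21. The closest to Lgals9, which spanned 3.29, were Glrx (0.174), Rin2 (0.202) and Bst1 (0.224), with a median of 1.19. Fst, nearest to Lgals3, encodes follistatin, a secreted binder of activin. Lgals1, Lgals7 and Lgals8 spanned only 0.82, 0.60 and 1.02, and their closest genes were Cggbp1 (0.102), Med26 (0.070) and Colgalt1 (0.086). The arrays share 3 kinds of cell, so these distances mostly compare levels between EC and the 2 lines.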

How the data were processed

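Per the file headers, the deposited table gives each probe's intensity before normalization on 12 arrays. Beside it stands a deposited detection p-value. The steps behind the authors' processed table of intensity values are not stated in the labels, and it served as an alternative. Gene symbols came from the platform's annotation, which names 13793 of 22523 probes. Intensities were background corrected with normexp, with negative controls inferred from the detection p-values, offset by 16, quantile normalized and taken to log2 in limma 3.58.1 (R 4.3.3). Arrays were treated in 3 families: 6 EC arrays, 6 tumour cell and exosome arrays, and 8 cell arrays. Probes detected at p under 0.01 on at least 2 arrays of a family were kept, with the probe of highest mean for each gene. Group means were compared by limma (lmFit and eBayes) with Benjamini-Hochberg adjustment at 0.05. The line entered the comparison of exosomes and cells additively, and single arrays were assumed to vary like the replicated groups. The fits were tested on simulated data.

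The galectins and the partner and marker lists were chosen with earlier results of these data known. All 7 galectins are named. From each list the gene with the largest passing difference in each direction is named, and for each galectin the closest genes over the cell arrays. Where a group had no detection, a bound is given unless the text says that no fold is given. It is the brighter group's mean over the dim group's lowest detected signal or own signal, whichever is higher. The number of arrays limits the precision. Same-numbered EC arrays deviated together (correlations 0.495, 0.375 and 0.555 over features), so the replicate number was also tried as a block. Promoter windows are RefSeq's (GRCr8), read with Python 3.11.15 and aligned with Biopython 1.88. Alternatives were the background correction and its offset, the scaling, the filter, the probe rule, the processed table, the block and leaving out each array.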

Additional observations from a re-analysis of the deposited data

How the results depend on the processing

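Of the values for single galectins under the alternatives, 422 kept direction and side of the threshold, 23 no longer passed, 7 newly passed and 28 changed sign. None of the sign changes was of a value that passed in both settings. Galectin counts were 0 under every alternative in the 3 EC comparisons and between exosome kinds. Between exosomes and cells the count of 2 fell to 1 when detection on every array was required, and ran from 1 to 2 with 1 array left out. It was 3 under median scaling (Lgals1, Lgals3 and Lgals7) and 3 without scaling (Lgals1, Lgals3 and Lgals8). The count in the test between lines was 2 without scaling in place of 0. Between untreated EC and tumour cells 4 became 5 under median scaling, with Lgals1 added, 3 without background correction and 3 in the authors' processed table, both without Lgals7, 2 without scaling, and 1 to 3 with 1 array left out, lowest without untreated EC replicate 2. Between the lines, 2 galectins in place of 1 were past 2-fold without scaling. In that setting 3318 of 9434 features were past it in place of 440, and the all-feature median was 0.84, so nothing is read from this count.

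Without scaling, all-feature medians were -0.13 in EC with AS-Tspan8 exosomes, -0.098 between exosome-treated EC and -0.25 between exosome kinds. They were -1.25 in the test between lines and -0.78 in EC against tumour cells. In that setting the sign changed for Lgals3 (-0.052) and Lgals9 (-0.029) in untreated EC against those with AS-Tspan8 exosomes, taken as treated minus untreated, for Lgals1 (-0.10) between the exosome-treated EC, for Lgals3 (-0.87) and Lgals7 (-0.32) between exosome kinds, for Lgals7 (-1.10) in the test between lines, and for Lgals1 (-0.27), Lgals7 (-0.24) and Lgals8 (-0.27) in EC against tumour cells. Relative to those medians Lgals3 (-0.618) and Lgals7 (-0.071) between exosome kinds and Lgals1 (-0.005) between treated EC stayed negative, unlike the others. Under median scaling Lgals8 turned to 0.64 between exosome kinds, where the median was 0.69. With 1 array left out, signs turned within these ranges: in EC with AS exosomes, Lgals1 -0.70 to 0.15 and Lgals9 -0.31 to 0.22. In EC with AS-Tspan8 exosomes, Lgals1 ranged from -0.69 to 0.16, Lgals3 from -0.23 to 0.36 and Lgals9 from -0.16 to 0.37. Between the exosome-treated EC the ranges were -0.21 to 0.23, -0.12 to 0.47 and -0.094 to 0.40 for the same genes. Between exosome kinds Lgals3 ranged from -0.11 to 0.22 and Lgals7 from -0.032 to 1.13. Lgals3 ranged from -0.92 to 0.92 between exosomes and cells, and Lgals1 from -0.32 to 0.42 between EC and tumour cells. The cause was not tested.

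Over all features, calls between exosome kinds were 304 under median scaling and 1 with detection on every array, in place of 0. In the test between lines they were 218 under median scaling, 4544 without scaling and 2 with detection on every array, in place of 0. Between exosomes and cells they were 8589 without scaling and 781 with detection on every array, where only 1175 features were tested, in place of 5371. In EC against tumour cells the calls split into 2418 higher and 2808 lower, 3353 and 2125 under median scaling, and 873 and 4173 without scaling. The count was 3544 of the 7258 features detected on every array, in place of 5226. With the replicate number as a block the galectin counts were 0, 2 and 4 as before, and the block changed no galectin's call. Arrays of the exosome kinds with the same number deviated in opposite directions (correlation -0.334), and crossing the numbers, chosen after seeing the data, also gave 0 calls. A block for the chip was not run, because the headers name no chip. Exosome arrays had the fewest detected probes, which limits all values of galectins there.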
